A study of Rattus norvegicus with 15 samples.

Results

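ATP-binding cassette (ABC) transporters are membrane proteins that use ATP to move a substrate across a membrane. Their expression was followed here across rat cardiac stem cells, beating colonies derived from them, and neonatal and adult cardiomyocytes. Genes were taken by symbol from subfamilies A to G, with at least 10 counts in at least 3 of the 12 libraries of the differentiation experiment. All 48 genes matched by symbol passed, out of 26276 genes in the table: 15 ABCA, 10 ABCB, 10 ABCC, 4 ABCD, 1 ABCE, 3 ABCF and 5 ABCG genes. Of these, 40 had at least 10 counts in every library and 8 did not.

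The family is best known for efflux pumps. P-glycoprotein, which rodents make from the neighbouring genes Abcb1a and Abcb1b, and the breast cancer resistance protein Abcg2 export drugs and fluorescent dyes, and dye export defines the side population in which stem and progenitor cells are enriched in many tissues. Other members export cholesterol and phospholipids, carry fatty acids into peroxisomes, serve mitochondrial haem and iron handling, or, as the sulfonylurea receptors Abcc8 and Abcc9, form the regulatory subunits of ATP-sensitive potassium (KATP) channels that couple metabolism to excitability in the heart. Abce1 and the ABCF proteins have ATPase domains but no membrane domain and act in translation.

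All cells came from Wistar rats, and no genotype or drug treatment is labelled. The iCM group holds 3 libraries from beating colonies of induced cardiomyocytes derived from clonogenic cardiac stem cells. The aCM group holds 3 libraries of cardiomyocytes freshly isolated from hearts of rats 12 weeks old. The nCM group holds 3 libraries of cardiomyocytes freshly isolated from hearts at postnatal day 1 to 2. The CSC group holds 3 cultures of undifferentiated cardiac stem cells that all belong to 1 clone, so it shows the spread between cultures of that clone and not between clones. Single libraries of 3 further clones, cCSC1, cCSC2 and cCSC3, were set against CSC replicate 1, which also serves as clone 4. The labels do not say whether libraries of iCM, aCM or nCM came from separate animals or cultures. A p-value thus reflects only how far single libraries scatter within groups, and that scatter may be technical. In the main fit all 4 groups share 1 estimate of spread per gene, so scatter in CSC also enters comparisons without CSC.

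Total counts per library, in units of 1e6, ran from 44.2 to 48.5 in iCM, 20.7 to 26.0 in aCM, 35.8 to 43.3 in nCM and 35.4 to 48.5 in CSC, so 3 counts correspond to between 0.0618 and 0.145 counts per 1e6 (CPM), which covers counting error only. Summed levels of 10 cardiomyocyte markers were 7640 to 8740 CPM in iCM, 98700 to 127000 in aCM, 2900 to 5640 in nCM and 5.65 to 55.0 in CSC. The freshly isolated nCM and the iCM also carried 8 fibroblast markers at 20400 to 22800 CPM (iCM) and 19800 to 24800 CPM (nCM), against 2830 to 5460 in aCM and 5600 to 6260 in CSC. The 6 erythroid markers measured summed to 16500 to 19700 CPM in iCM, 78.9 to 98.8 in aCM, 23600 to 35600 in nCM and 23.3 to 164 in CSC. Kit, the receptor by which cardiac stem cells are commonly sorted, averaged 17.97 ± 1.0 CPM in iCM, 33.4 ± 6.9 in aCM, 27.8 ± 4.1 in nCM and 0.41 ± 0.068 in CSC (SD, n = 3 each).

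The upstream sequences of 4 efflux pump genes are shown because Abcb1a, Abcb1b and Abcc4 were the members most reduced relative to CSC in iCM, aCM and nCM, while Abcg2, the pump of the side population, was higher than in CSC. Each line gives the 250 bases before the annotated transcription start, 5′ to 3′ on the gene's own strand, from RefSeq on the GRCr8 build. Capitals mark matches on either strand to the CCAAT box (CCAAT), the GC box (GGGCGG), the E box (CACGTG) and the TATA box (TATAAA). They also mark a loose form of the core of the antioxidant response element (TGANNNNGC), with any base at each N.
Abcb1a, chr4:26397649-26397898, minus strand: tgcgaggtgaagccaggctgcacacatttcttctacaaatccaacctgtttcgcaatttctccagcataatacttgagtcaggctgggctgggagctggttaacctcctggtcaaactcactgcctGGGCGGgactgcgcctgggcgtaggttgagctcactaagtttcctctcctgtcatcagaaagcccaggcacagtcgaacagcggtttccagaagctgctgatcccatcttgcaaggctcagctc
Abcb1b, chr4:26280030-26280279, minus strand: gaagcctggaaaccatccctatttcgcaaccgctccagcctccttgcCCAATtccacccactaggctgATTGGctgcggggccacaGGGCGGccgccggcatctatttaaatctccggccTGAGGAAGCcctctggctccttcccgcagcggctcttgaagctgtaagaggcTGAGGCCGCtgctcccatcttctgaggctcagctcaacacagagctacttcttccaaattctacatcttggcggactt
Abcc4, chr15:102181365-102181614, minus strand: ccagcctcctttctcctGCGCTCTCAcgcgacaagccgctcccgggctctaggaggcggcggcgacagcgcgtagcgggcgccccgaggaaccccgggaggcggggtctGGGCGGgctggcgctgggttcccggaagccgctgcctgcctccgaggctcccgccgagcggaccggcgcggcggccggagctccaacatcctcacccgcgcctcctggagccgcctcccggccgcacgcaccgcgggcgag
Abcg2, chr4:89075224-89075473, plus strand: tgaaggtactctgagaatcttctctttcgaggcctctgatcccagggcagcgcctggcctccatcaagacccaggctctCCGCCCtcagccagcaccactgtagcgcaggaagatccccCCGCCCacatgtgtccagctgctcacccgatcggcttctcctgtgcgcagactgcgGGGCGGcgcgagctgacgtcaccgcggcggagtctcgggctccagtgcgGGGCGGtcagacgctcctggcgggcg

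The window of Abcb1a held 1 GC box, whose first base lay 124 bases before the start. That of Abcb1b held a CCAAT box in each orientation, 1 GC box and 2 matches to the loose antioxidant pattern. Abcc4 had 1 GC box and 1 match to the loose antioxidant pattern, and Abcg2 had 4 GC boxes and neither a CCAAT nor a TATA box. These are letter matches and not binding sites. Of the 37 members with a window, 21 held a GC box, against 30.5% of all 33469 windows of the table, and 13 a CCAAT box (34.0% of all windows). The loose antioxidant pattern was in 15 (34.7%), a TATA box in 5 (12.9%) and an E box in 3 (5.59%). In RefSeq on GRCr8, Abcb1a and Abcb1b stand beside each other and beside Abcb4 on chromosome 4. Abcb1a and Abcb1b are near copies, reads may have been divided between them in the authors' counting, and their separate levels are uncertain to that extent.

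Most members differed between some of the groups, as did most genes tested. A gene was called different where the edgeR quasi-likelihood test gave a Benjamini-Hochberg adjusted p under 0.05 over all 17242 genes tested, and levels are CPM scaled by the trimmed mean of M-values (TMM). In iCM over CSC, 18 members were higher and 17 lower, 37.5% and 35.4% of the 48, against 34.8% and 31.2% of all genes tested. Their median log2 fold change was 0.11, against 0.08 for all genes, so neither the share nor the median set them apart from other genes. In nCM over CSC, 20 were higher and 19 lower, 41.7% and 39.6% of the 48, against 36.7% and 35.4% of all genes. The median there was 0.19 against 0.09.

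Adult cardiomyocytes were the group in which most members peaked. In aCM over CSC, 28 members were higher and 11 lower, against 43.2% and 34.8% of all genes, and the median log2 fold change was 1.00 against 0.29. In aCM over nCM, 25 were higher and 8 lower, against 30.8% and 31.9% of all genes, with a median of 0.58 against -0.01. With library totals alone in place of TMM, that split was 18 higher and 10 lower, and the median of all genes moved to -0.35. In iCM over aCM, 7 were higher and 26 lower, against 33% and 30.1% of all genes, with a median of -0.73 against 0.00. The highest group mean was in aCM for 26 of the 48 members, 54.2% against 34.1% of all genes, in CSC for 12 of 48 (against 33.6%), in nCM for 9 (18.8% against 21.9%) and in iCM for 1, Abcb11 (2.08% against 10.4%).

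Between iCM and nCM the fewest members were called, and the same held for all genes tested. In iCM over nCM, 11 members were higher and 5 lower, and 32 did not pass. These were 22.9% and 10.4% of the 48, near the 18.3% and 13.1% of all genes. Leaving out nCM replicate 2 left 7 higher and 3 lower. Over the 6 comparisons, 47 of 48 members were called at least once, against 93.2% of all genes tested, and Abca14 never. Abca2, Abca8a, Abcb1a, Abcc3 and Abcc8, 5 of 48, were called in all 6, against 8.79% of all genes. Of 195 calls, 33 were lost under at least 1 of 20 alternative settings.

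**Figure D1:**
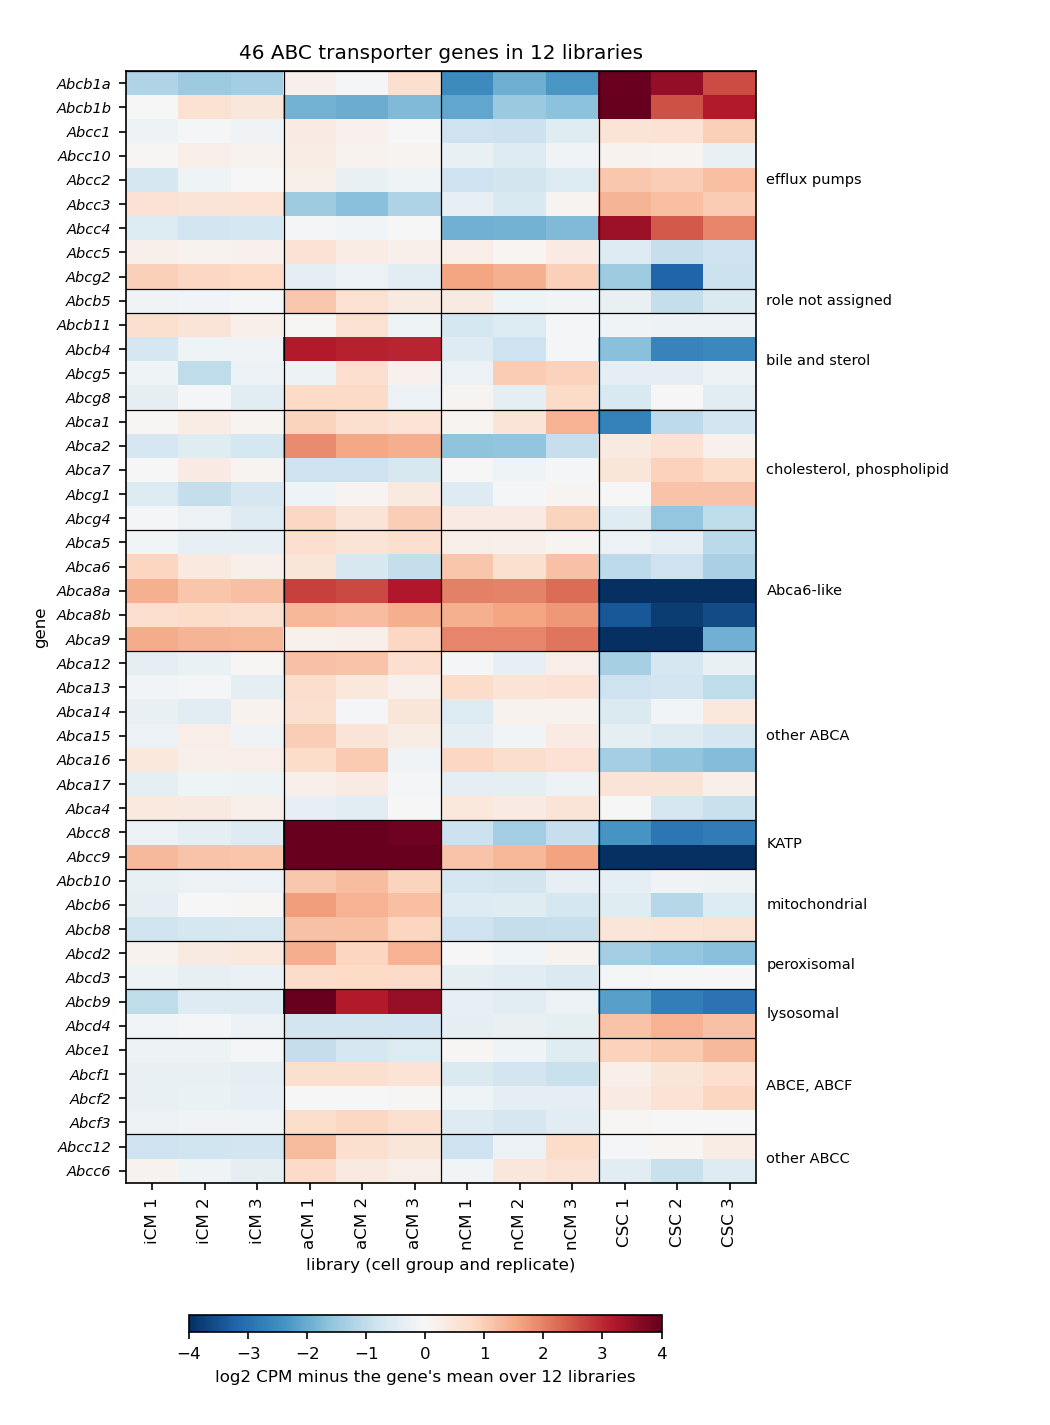
Levels of 46 of the 48 ABC transporter genes in 12 libraries, as log2 CPM minus the mean of each gene over the libraries, with genes in rows grouped by role, libraries in columns and colours held at 4 above and 4 below the mean. Abcb1a, Abcb1b and Abcc4 were highest in the CSC columns, while Abcc8, Abcc9, Abcb4 and Abcb9 were highest in the aCM columns.

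**Figure D2:**
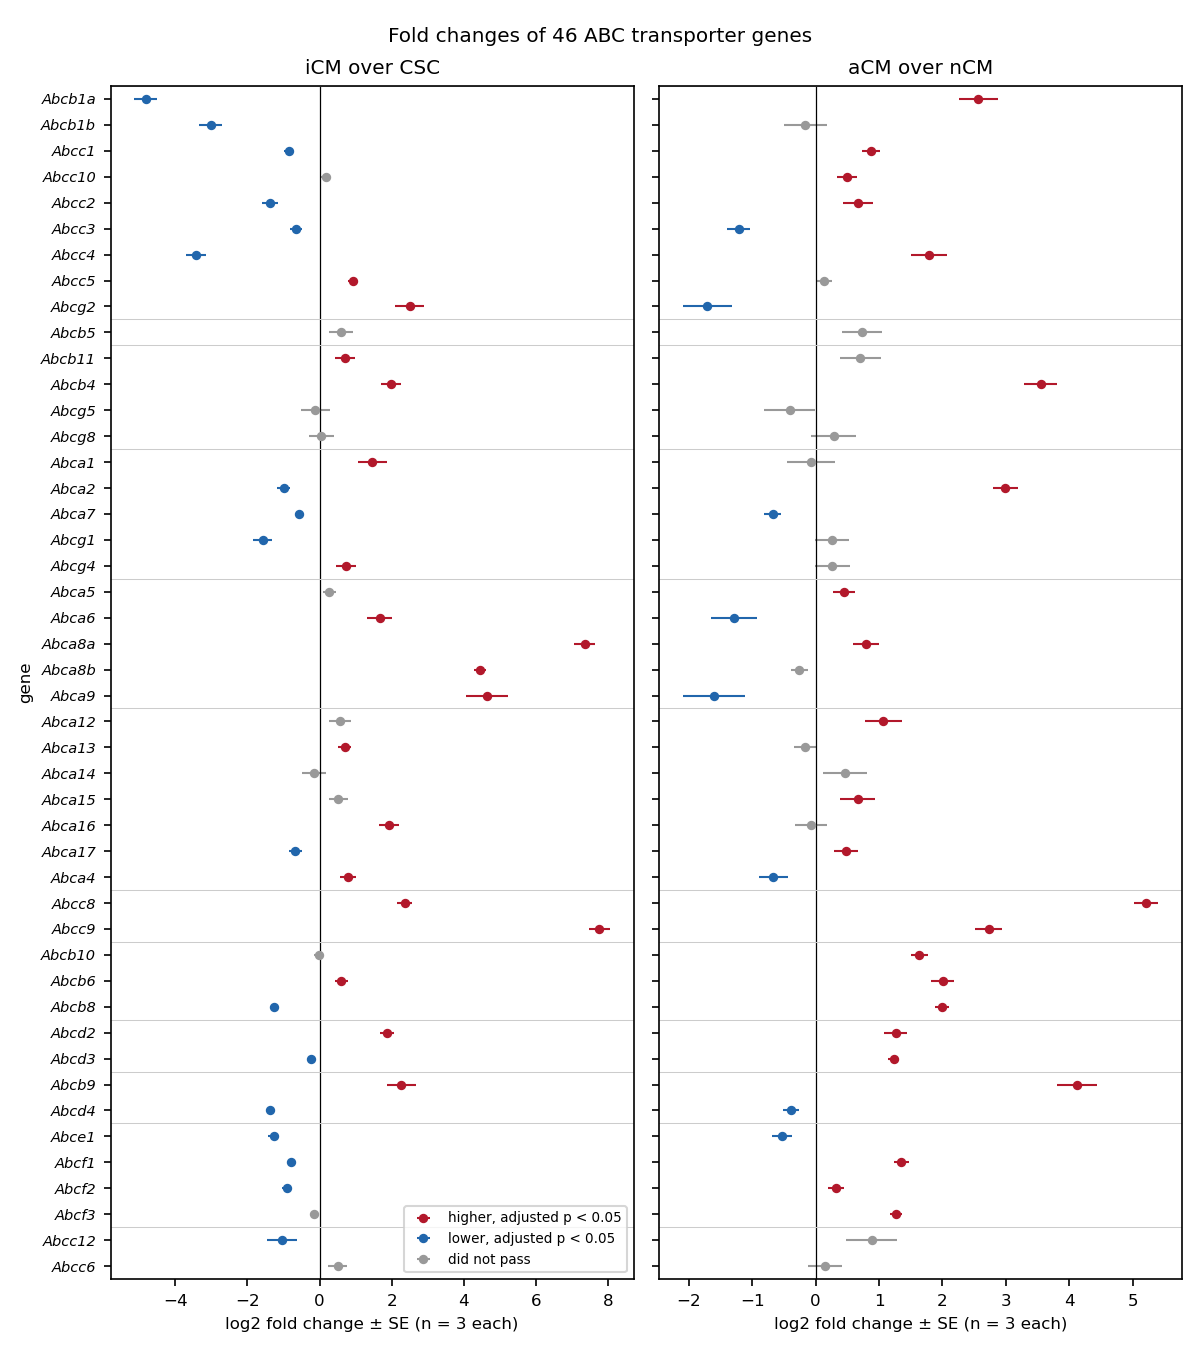
Log2 fold change of 46 of the 48 genes in iCM over CSC (left) and aCM over nCM (right), with bars of 1 SE and 3 libraries in each group. In iCM over CSC 18 of the genes drawn were called higher and 17 lower, and in aCM over nCM 23 of those drawn were called higher and 8 lower.

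Among the 9 efflux pumps, 6 were lower and 2 higher in each of iCM, aCM and nCM than in CSC. Of all genes tested, 31.2% (iCM), 34.8% (aCM) and 35.4% (nCM) were lower, and 34.8%, 43.2% and 36.7% higher. The pumps summed to 284 ± 5.7 CPM in iCM, 308 ± 25 in aCM, 206 ± 22 in nCM and 874 ± 259 in CSC (SD, n = 3 each). Abcb1a, Abcb1b, Abcc1, Abcc2, Abcc3 and Abcc4 were lower in all 3 cardiomyocyte groups, Abcg2 and Abcc5 were higher, and Abcc10 was not called against CSC.

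Abcb1a, a P-glycoprotein gene, had 6.19, 5.17 and 5.53 CPM in iCM, 16.6, 13.7 and 22.2 in aCM, 2.42, 3.62 and 2.81 in nCM, and 223, 163 and 87.5 in CSC. Every CSC library stood above every other library, and the iCM and nCM libraries did not overlap. It was 28.1-fold lower in iCM than in CSC (log2 fold change -4.81 ± 0.32, SE; adjusted p = 2.02e-08), 53.6-fold lower in nCM than in CSC and 9.06-fold lower in aCM than in CSC. It was 5.92-fold higher in aCM than in nCM and 3.10-fold lower in iCM than in aCM. The step between iCM and nCM was smaller, at 1.91-fold (adjusted p = 0.0316), and lost its call with library totals alone (adjusted p = 0.0508) and without any one of iCM replicates 1, 2 and 3 or nCM replicates 1 and 3, with adjusted p between 0.0571 and 0.099 in the fits without 1 library.

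Abcb1b, the other P-glycoprotein gene, had 15.3, 22.8 and 20.8 CPM in iCM, 3.99, 3.76 and 4.43 in aCM, 3.49, 5.32 and 4.85 in nCM, and 252, 89.0 and 135 in CSC. The CSC libraries were again the highest, but here iCM came next, above every aCM and nCM library, and aCM and nCM overlapped. It was 8.08-fold lower in iCM, 39.1-fold lower in aCM and 34.9-fold lower in nCM than in CSC, and 4.84-fold higher in iCM than in aCM (adjusted p = 5.22e-05). It was 4.32-fold higher in iCM against nCM (adjusted p = 0.000359), and aCM over nCM did not pass (log2 fold change -0.16 ± 0.34, adjusted p = 0.698). The log2 ratio of Abcb1a to Abcb1b was -1.79 ± 0.43 in iCM, 2.08 ± 0.23 in aCM, -0.62 ± 0.14 in nCM and 0.02 ± 0.77 in CSC (SD, n = 3 each). The balance thus lay on opposite sides in iCM and aCM, a difference of -3.87, and with 3 libraries against 3 the exact two-sided permutation p of 0.1 is the smallest possible.

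Abcc4, which exports cyclic nucleotides and prostaglandins, had 25.2, 21.7 and 22.6 CPM in iCM, 34.95, 34.29 and 37.01 in aCM, 9.72, 10.03 and 10.99 in nCM, and 398, 203 and 143 in CSC. The 4 groups did not overlap. It was 10.7-fold lower in iCM, 7-fold lower in aCM and 24.2-fold lower in nCM than in CSC, and 2.26-fold higher in iCM against nCM (adjusted p = 0.00606). The difference of iCM from aCM, -0.61 on the log2 scale, did not pass (adjusted p = 0.0611). It passed in 5 of 20 alternatives, among them a fit of those 2 groups alone (-0.67, adjusted p = 0.000151).

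Abcg2, the dye pump of the side population, ran the other way. It had 6.17, 5.67 and 5.59 CPM in iCM, 2.43, 2.69 and 2.38 in aCM, 9.63, 8.71 and 6.19 in nCM, and 1.15, 0.299 and 1.72 in CSC, where it rested on 48, 14 and 58 counts. All CSC libraries lay below all others. It was 5.63-fold higher in iCM than in CSC (log2 fold change 2.49 ± 0.40, adjusted p = 9.95e-05), 7.92-fold higher in nCM than in CSC and 2.43-fold higher in aCM than in CSC (adjusted p = 0.0131, and 0.06 in a fit of those 2 groups alone). In order of level nCM came first, iCM second without passing against nCM (log2 fold change -0.49 ± 0.36, adjusted p = 0.311, and 0.0453 in a fit of those 2 groups alone), then aCM and last CSC. It was 2.32-fold higher in iCM than in aCM (adjusted p = 0.0145) and 3.26-fold lower in aCM than in nCM. Abcg2 is also expressed by endothelial cells. Of 10 endothelial markers, 10 were higher than in CSC in each of iCM, aCM and nCM, against 34.8%, 43.2% and 36.7% of all genes. Their sums were 2340 to 2720 CPM in iCM, 1800 to 2620 in aCM, 3330 to 4000 in nCM and 72 to 120 in CSC. None of the 10 was at 0 in every CSC library, 4 averaged under 1 CPM there, and their part in the result was not tested. In bulk libraries of this kind, fewer cells of a type and less RNA per cell cannot be told apart.

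**Figure D3:**
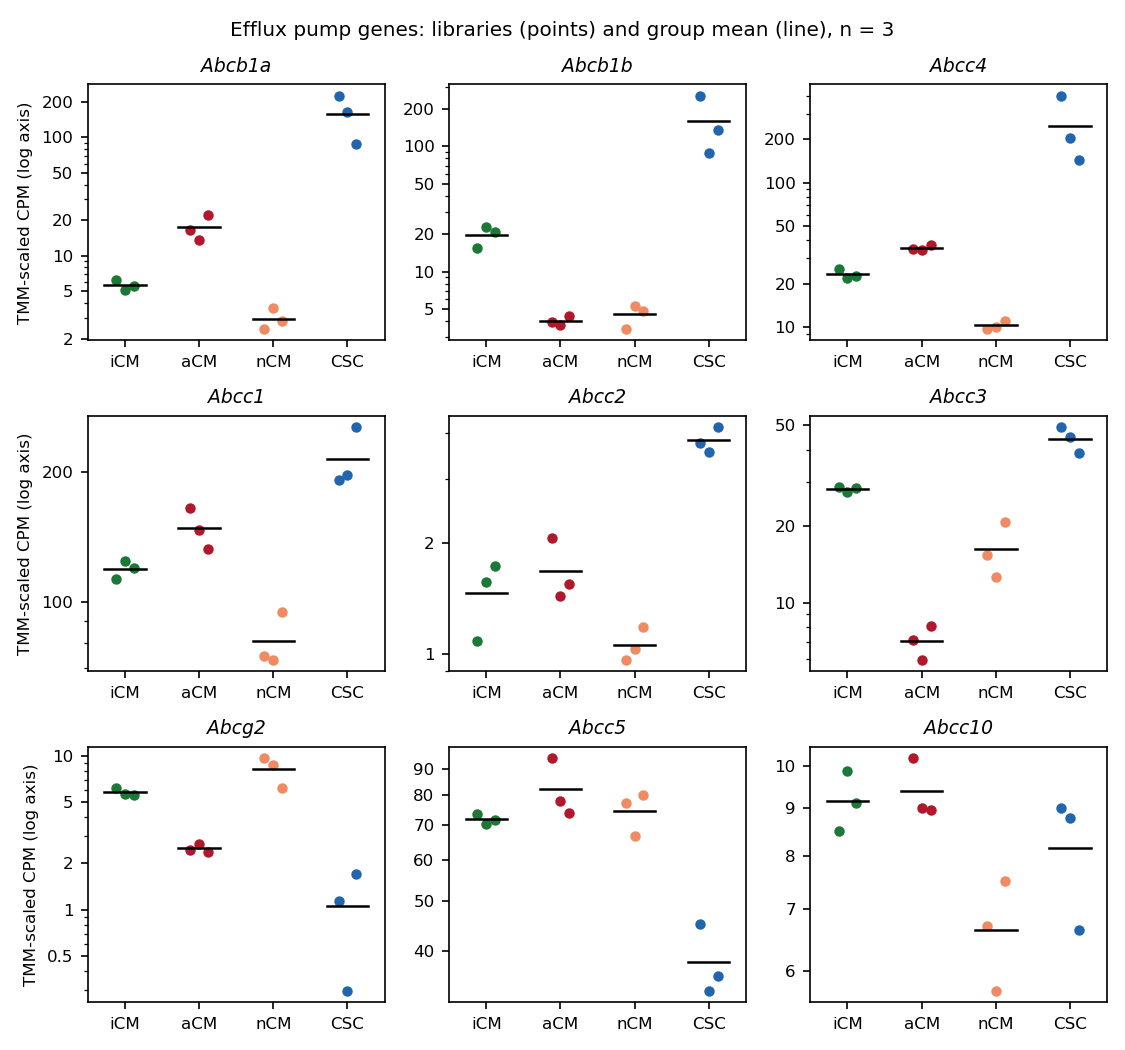
TMM-scaled CPM (log axes, a scale of its own for each gene) of the 9 efflux pump genes in iCM, aCM, nCM and CSC, with points for libraries and lines for the mean of 3. Abcb1a, Abcb1b and Abcc4 sat highest in CSC, and Abcg2 sat lowest there.

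The other pumps moved less. Abcc1, a glutathione conjugate exporter, averaged 119 ± 5.7 CPM in iCM, 148 ± 16 in aCM, 81.0 ± 12 in nCM and 214 ± 34 in CSC, with log2 fold changes against CSC of -0.85 (iCM), -0.53 (aCM) and -1.40 (nCM). Abcc2, the canalicular conjugate pump, averaged 1.46 ± 0.34 CPM in iCM, 1.69 ± 0.34 in aCM, 1.06 ± 0.11 in nCM and 3.81 ± 0.30 in CSC. Abcc3, a basolateral conjugate pump, averaged 28 ± 0.63 CPM in iCM, 7.04 ± 1.1 in aCM, 16.3 ± 4.1 in nCM and 44.3 ± 5.2 in CSC, with every pair of groups called different and no overlap between groups. Its log2 fold changes were -2.66 in aCM over CSC, -1.21 in aCM over nCM and 1.99 in iCM over aCM. Abcc5, another cyclic nucleotide exporter, was higher than in CSC by 0.92 (iCM), 1.11 (aCM) and 0.97 (nCM) on the log2 scale, and did not pass between the cardiomyocyte groups.

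In iCM over nCM, 6 of the 9 pumps were higher and none lower, against 18.3% and 13.1% of all genes: Abcb1a, Abcb1b, Abcc1, Abcc3, Abcc4 and Abcc10. Of these, the calls of Abcb1a and Abcc10 were lost in fits without 1 library, Abcc10 (log2 fold change 0.46, adjusted p = 0.0411) in those without iCM replicate 1, 2 or 3, nCM replicate 1 or 2, or aCM replicate 2. In aCM over nCM, 5 were higher (Abcb1a, Abcc1, Abcc2, Abcc4 and Abcc10) and 2 lower (Abcc3 and Abcg2), against 30.8% and 31.9% of all genes. The calls of Abcc2 and Abcc10 were lost with library totals alone, where their log2 fold changes were 0.32 and 0.15, and without aCM replicate 1 or nCM replicate 2. That of Abcc2 was also lost without nCM replicate 1.

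Of 5 transcription factor genes known to regulate efflux pumps, Nfe2l2, Ahr and Hif1a were lower than in CSC in all 3 cardiomyocyte groups. Counting all 5, 3 were lower in iCM, 3 in aCM and 4 in nCM, against 31.2%, 34.8% and 35.4% of all genes. In the same order 0, 2 and 1 were higher, against 34.8%, 43.2% and 36.7% of all genes. Any link of these genes to the pump levels was not tested. Nfe2l2, the factor that binds antioxidant response elements, averaged 212 CPM in iCM, 144 in aCM, 258 in nCM and 549 in CSC. The log2 fold changes of Ahr, the dioxin receptor, against CSC were -1.26 (iCM), -1.51 (aCM) and -0.73 (nCM), and those of Hif1a, the hypoxia factor, were -0.74, -0.98 and -0.64 in the same order. Nr1i2, the pregnane X receptor, was higher than in CSC in aCM (2.31) and nCM (1.90), at means of 1.70 and 1.27 CPM against 0.34 CPM in CSC. Nr1i3, the constitutive androstane receptor, was higher than in CSC in aCM (0.99) and lower in nCM (-0.81).

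Both sulfonylurea receptors were higher than in CSC in all 3 cardiomyocyte groups and higher in aCM than in iCM and nCM. Abcc9, the receptor of ventricular and vascular KATP channels, had 109, 97.7 and 94.5 CPM in iCM, 762.9, 760.1 and 746.4 in aCM, 96.9, 110.1 and 134 in nCM, and 0.79, 0.363 and 0.207 in CSC, where it rested on 33, 17 and 7 counts. The aCM libraries were far above all others and the CSC libraries far below, and iCM and nCM overlapped. It was 215-fold higher in iCM, 1624-fold higher in aCM and 244-fold higher in nCM than in CSC. Without CSC replicate 1 these log2 fold changes of 7.75, 10.67 and 7.93 became 8.39, 11.30 and 8.57. It was 6.65-fold higher in aCM than in nCM (log2 fold change 2.73 ± 0.21, adjusted p = 1.16e-07), and iCM over nCM did not pass (-0.18 ± 0.20, adjusted p = 0.517).

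Abcc8, the receptor of pancreatic and rodent atrial KATP channels, had 4.04, 3.61 and 3.35 CPM in iCM, 100.5, 84.0 and 72.2 in aCM, 2.59, 1.80 and 2.51 in nCM, and 0.885, 0.597 and 0.651 in CSC. None of the 4 groups overlapped. It was 37.1-fold higher in aCM than in nCM (log2 fold change 5.21 ± 0.19, adjusted p = 2.44e-10), the largest change of any member in that comparison, and 23.3-fold lower in iCM than in aCM. Between iCM and nCM it differed by 0.67 on the log2 scale (adjusted p = 0.013), a call that was lost without nCM replicate 2 (0.53, adjusted p = 0.0559). The log2 ratio of Abcc8 to Abcc9 was -4.78 ± 0.038 in iCM, -3.16 ± 0.22 in aCM and -5.63 ± 0.37 in nCM, so the ratio stood 2.48 higher in aCM than in nCM (exact two-sided permutation p = 0.1, the smallest possible).

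The 2 pore genes of these channels differed from each other. Kcnj11 (Kir6.2) had 2.28, 2.47 and 2.63 CPM in iCM, 72.3, 58.7 and 52.8 in aCM, 1.84, 1.30 and 1.14 in nCM, and 5, 0 and 2 counts in CSC. It was 5.42 higher in aCM than in nCM on the log2 scale. Kcnj8 (Kir6.1), the pore of vascular channels, averaged 45.9 CPM in iCM, 68.6 in aCM, 62.4 in nCM and 0.36 in CSC, and did not pass in aCM over nCM (log2 fold change 0.14). Abcc9 and Kcnj8 are also genes of mural cells, and the 7 smooth muscle and pericyte markers measured summed to 1120 to 1660 CPM in iCM, 1730 to 2380 in aCM, 1080 to 1170 in nCM and 249 to 284 in CSC. Of them 6 were higher than in CSC in each of iCM, aCM and nCM, against 34.8%, 43.2% and 36.7% of all genes. In iCM and in nCM 1 was lower than in CSC, against 31.2% and 35.4% of all genes. In aCM over nCM 4 were higher and 1 lower, against 30.8% and 31.9% of all genes. Cspg4 had a log2 CPM of 7.79 to 7.97 in CSC and made up most of the CSC sum. None of the 7 was at 0 in every CSC library and 2 averaged under 1 CPM there. The part of these markers in the result was not tested. In aCM over nCM, 10 of 10 cardiomyocyte markers were also higher.

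**Figure D4:**
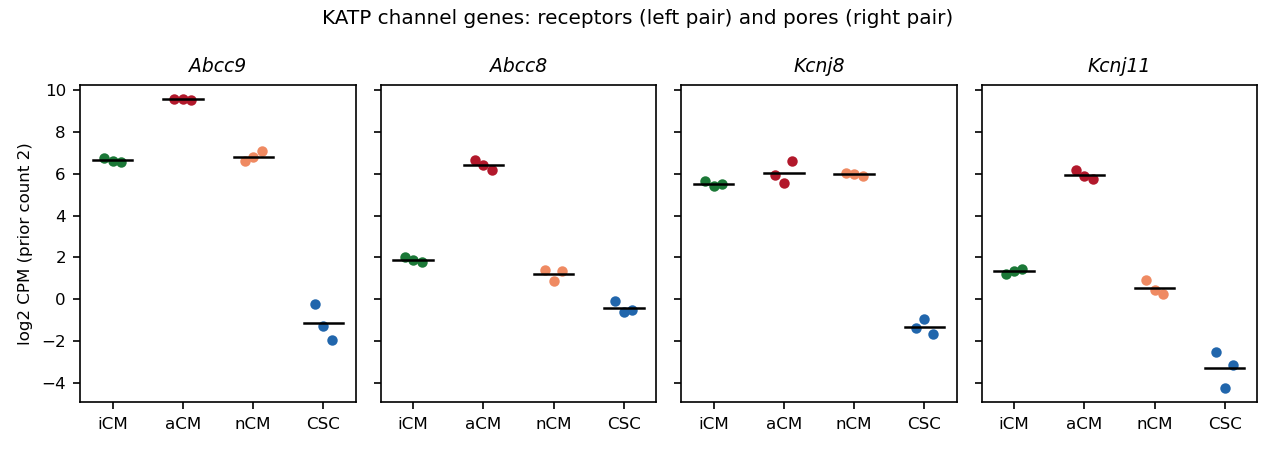
Log2 CPM (with a prior count of 2) of the KATP receptor genes Abcc9 and Abcc8 and the pore genes Kcnj8 and Kcnj11 in iCM, aCM, nCM and CSC, with points for libraries and lines for the mean of 3. Abcc9, Abcc8 and Kcnj11 stood highest in aCM, while Kcnj8 did not pass in aCM over nCM.

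Of the 4 genes named for bile and sterol export in liver, Abcb4 alone was measured well above 1 CPM. Abcb4, a phosphatidylcholine floppase and the gene next to Abcb1b, had 3.23, 4.60 and 4.67 CPM in iCM, 47.17, 44.19 and 43.05 in aCM, 3.62, 2.88 and 4.96 in nCM, and 1.58, 0.768 and 0.828 in CSC. All aCM libraries lay above all others, and iCM and nCM overlapped. It was higher in aCM than in nCM (log2 fold change 3.55 ± 0.26, adjusted p = 6.46e-08), 10.7-fold lower in iCM than in aCM, and higher in iCM (1.97), aCM (5.40) and nCM (1.85) than in CSC on the log2 scale. Its neighbours Abcb1a and Abcb1b were lower than in CSC in the same 3 groups.

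Abcb11, the bile salt pump, and the sterol pumps Abcg5 and Abcg8 were near the detection floor, with group means of 0.325 to 0.638 CPM, 0.349 to 0.803 CPM and 0.571 to 1.05 CPM. Abcb11 was called higher in iCM than in CSC (0.70, adjusted p = 0.0398) and than in nCM (0.97, adjusted p = 0.0202). Abcg5 was called lower in iCM against nCM (-1.19, adjusted p = 0.0294) and higher in nCM than in CSC, and Abcg8 higher in aCM than in CSC. Each of these 5 calls was lost in fits that left out 1 library: that of Abcb11 in iCM over nCM without replicate 1 or 2 of either group, that in iCM over CSC without iCM replicate 1 or 2 or any CSC library, that of Abcg5 in iCM over nCM without replicate 2 or 3 of either group, that in nCM over CSC without nCM replicate 2 or 3 or CSC replicate 1 or 2, and that of Abcg8 without aCM replicate 1 or 2, CSC replicate 1 or 3 and further libraries. Abcg8 and Abcg5 stand side by side on chromosome 6 in RefSeq.

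Members that export cholesterol and phospholipids split by group. Abca1, which loads cholesterol onto apolipoprotein A-I, had 51.3, 60.7 and 53.1 CPM in iCM, 91.2, 76.6 and 71.8 in aCM, 53.2, 69.9 and 128 in nCM, and 7.54, 23.7 and 28.8 in CSC. It was higher than in CSC in iCM (log2 fold change 1.46 ± 0.39, adjusted p = 0.00496), aCM (2.00 ± 0.40) and nCM (2.07 ± 0.40), with no overlap. Between cardiomyocyte groups it did not pass in the main fit. In iCM over aCM (adjusted p = 0.238) it passed in 1 of 20 alternatives, a fit of those 2 groups alone (-0.596, adjusted p = 0.00169). Abca1 is also a macrophage gene, and nCM replicate 3, where it was highest, had a sum of 10 leukocyte and macrophage markers of 474 CPM, against 312 and 317 in the other nCM libraries. That sum was 137 to 157 CPM in iCM, 352 to 461 in aCM and 28.6 to 48 in CSC, and its part in the result was not tested. In aCM over nCM 9 of the 10 markers were lower and 1 higher, against 31.9% and 30.8% of all genes. Cd74 had a log2 CPM of 7.94 to 8.25 in aCM, against 4.81 to 5.80 in nCM, and made up most of the aCM sum. Of the 10 markers, 9 were higher than in CSC in each of iCM, aCM and nCM, against 34.8%, 43.2% and 36.7% of all genes. In aCM and in nCM 1 was lower than in CSC, against 34.8% and 35.4% of all genes. None of the 10 was at 0 in every CSC library, but 7 averaged under 1 CPM there. Cd14 had a log2 CPM of 4.58 to 5.36 in CSC and made up most of the CSC sum.

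Abcg1, which passes cholesterol to HDL, went the other way. It had 16.6, 12.6 and 15.3 CPM in iCM, 21.9, 26.4 and 32.4 in aCM, 17.1, 23.9 and 26.5 in nCM, and 24.7, 53.5 and 54.3 in CSC, where replicate 1 overlapped aCM and nCM. It was lower than in CSC in iCM (-1.58 ± 0.27, adjusted p = 0.00017), aCM (-0.72 ± 0.27) and nCM (-0.97 ± 0.27). The aCM call was lost without aCM replicate 1 or 2 or CSC replicate 2 or 3, with adjusted p up to 0.0953. The lower level in iCM than in aCM (-0.86) was lost without iCM replicate 2 or aCM replicate 3.

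Abca2, an endolysosomal lipid transporter studied mainly in brain, had 23.69, 27.45 and 23.64 CPM in iCM, 142, 112 and 104 in aCM, 12.5, 12.6 and 19.9 in nCM, and 48.9, 56.4 and 43.0 in CSC. The groups did not overlap, and aCM was the highest. It was 7.96-fold higher in aCM than in nCM (log2 fold change 2.99 ± 0.19, adjusted p = 2.29e-08) and lower in iCM (-0.99) and nCM (-1.72) than in CSC. Abca7, a phospholipid exporter, was lower than in CSC in iCM (-0.56), aCM (-1.49) and nCM (-0.81), and higher in iCM than in aCM (0.92, adjusted p = 4.23e-05). Abcg4, a sterol exporter of brain, averaged 1.87 ± 0.31 CPM in iCM, 3.90 ± 0.62 in aCM, 3.24 ± 0.78 in nCM and 1.12 ± 0.43 in CSC, and was higher than in CSC in aCM (1.79) and nCM (1.53). Its call in iCM over CSC (0.74) was lost without iCM replicate 1 or 2 or CSC replicate 2 or 3, and that in iCM over nCM (-0.80) without any iCM library, nCM replicate 2 or 3 or aCM replicate 1.

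The liver X receptor (LXR) axis controls Abca1 and Abcg1. Of 14 genes of this axis and of cellular cholesterol handling, 5 were higher and 7 lower in iCM than in CSC. In aCM 4 were higher and 8 lower than in CSC, and in nCM 3 were higher and 9 lower. Of all genes, 34.8% were higher and 31.2% lower in iCM, 43.2% and 34.8% in aCM, and 36.7% and 35.4% in nCM. Srebf1, a lipogenic factor under LXR control, averaged 23.8 CPM in iCM, 23.7 in aCM, 12.4 in nCM and 284 in CSC. Soat1, which esterifies cholesterol, averaged 63.8 CPM in iCM, 12.8 in aCM, 55.5 in nCM and 257 in CSC. The LXR gene Nr1h3 was lower in nCM (-2.37) and aCM (-0.94) than in CSC and higher in iCM than in nCM (2.17), while the other LXR gene, Nr1h2, passed in none of the 6 comparisons. Apoe, a lipid acceptor, was higher than in CSC by 5.96 (iCM), 6.92 (aCM) and 7.16 (nCM) on the log2 scale.

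The Abca6-like genes, whose substrates are less well defined, included 3, Abca6, Abca8a and Abca8b, whose means in CSC were under 1 CPM, while Abca9 averaged 2.26 CPM and Abca5 8.76 CPM there. In RefSeq on GRCr8, Abca8a, Abca9, Abca6 and Abca5 stand next to each other on chromosome 10, and Abca8a and Abca8b are near copies, so their separate levels are uncertain. Of the 5 genes measured, 4 were higher in iCM, 4 in aCM and 5 in nCM than in CSC, and none was lower. The shares of all genes that were higher were 34.8% (iCM), 43.2% (aCM) and 36.7% (nCM).

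Abca8a had 101, 80.5 and 87.3 CPM in iCM, 249, 232 and 347 in aCM, 152, 149 and 176 in nCM, and 0.598, 0.768 and 0.207 in CSC, where it rested on 25, 36 and 7 counts. It was 163-fold higher in iCM, 503-fold higher in aCM and 289-fold higher in nCM than in CSC. The other 3 groups did not overlap either, with iCM called below both aCM (-1.63) and nCM (-0.83). Its higher level in aCM than in nCM (0.80 ± 0.21, adjusted p = 0.00414) did not pass with library totals alone (0.45, adjusted p = 0.0811).

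Abca9 had 57.5, 53.1 and 51.5 CPM in iCM, 23.2, 23.5 and 36.1 in aCM, 80.4, 80.2 and 90.5 in nCM, and 0.67, 0.747 and 5.35 in CSC. Replicate 3 of CSC stood apart from the other CSC cultures but still below every other group. The log2 fold changes against CSC were 4.64 (iCM), 3.67 (aCM) and 5.27 (nCM), and 6.24, 5.26 and 6.87 without CSC replicate 3. Abca9 was lower in aCM than in nCM (-1.60 ± 0.49, adjusted p = 0.011), as was Abca6 (-1.28 ± 0.36, adjusted p = 0.00655, and -1.90 without aCM replicate 1), while Abca8a was higher. The log2 ratio of Abca8a to Abca9 was 0.72 ± 0.11 in iCM, 3.33 ± 0.083 in aCM and 0.92 ± 0.033 in nCM, a difference of 2.41 between aCM and nCM (exact two-sided permutation p = 0.1, the smallest possible).

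Abca8b averaged 7.75 ± 0.31 CPM in iCM, 12.2 ± 0.91 in aCM, 14.6 ± 1.5 in nCM and 0.353 ± 0.054 in CSC, and its log2 fold changes against CSC were 4.45, 5.10 and 5.36 in that order of groups. Abca5, a lysosomal member, was higher than in CSC in aCM (1.16) and nCM (0.71) only, its iCM value being 0.28 (adjusted p = 0.19). Its call in aCM over nCM (0.45, adjusted p = 0.0424) was lost in 12 of 20 alternatives, among them every fit that left out an aCM or nCM library. Of the 8 fibroblast markers, 8 were higher in iCM than in CSC (against 34.8% of all genes) and 6 in nCM (against 36.7%). In aCM over CSC 5 were higher and 2 lower, against 43.2% and 34.8% of all genes. In aCM over nCM, 7 of the 8 were lower, against 31.9% of all genes. None was at 0 in every CSC library and 3 averaged under 1 CPM there, and their part in the result was not tested.

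The remaining 7 ABCA genes were low. Abca4, the retinal flippase, and Abca13 and Abca16, whose substrates are poorly known, had their highest group means in nCM. Abca16 was higher than in CSC by 1.93 (iCM), 2.27 (aCM) and 2.34 (nCM), and Abca13 by 0.70, 1.34 and 1.5 in the same order. Between iCM and nCM, Abca13 was lower in iCM (-0.80). Abca4 was higher than in CSC in iCM (0.79) and nCM (0.90), and Abca12, the keratinocyte ceramide transporter, was higher in aCM than in CSC (1.82) and in nCM (1.07). Abca15 was higher in aCM than in CSC (1.2), Abca17 was lower in iCM (-0.68) and nCM (-0.74) than in CSC, and Abca14 was called nowhere, with group means of 0.645 to 0.987 CPM. The calls of Abca15 and Abca17 in aCM over nCM, of Abca15 and Abca4 in iCM over aCM and of Abca12 in nCM over CSC, were each lost in at least 8 of 20 alternatives, the first 4 of them among others without aCM replicate 1 or 2 and that of Abca12 without nCM replicate 1 or 3 or CSC replicate 1 or 2. Abca14, Abca15 and Abca16 stand side by side on chromosome 1 in RefSeq.

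The mitochondrial members Abcb6, Abcb8 and Abcb10 were higher in aCM than in each other group. Abcb8, linked in mouse heart to mitochondrial iron export, had 22.5, 23.8 and 24.9 CPM in iCM, 88.5, 88.9 and 71.6 in aCM, 20 to 21.9 in the 3 nCM libraries, and 54.4, 57.6 and 59.2 in CSC. No groups overlapped, with aCM highest and CSC next. It was higher in aCM than in nCM by 2.00 ± 0.11 on the log2 scale (adjusted p = 4.15e-09), as were Abcb6, a porphyrin transporter (2.00 ± 0.19), and Abcb10, which acts in haem synthesis (1.64 ± 0.13).

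In iCM over aCM the log2 fold changes were -1.81 (Abcb8), -1.54 (Abcb6) and -1.32 (Abcb10), all called lower, and in iCM over nCM none of the 3 passed. Their calls of aCM against nCM and iCM held in all 20 alternatives. Abcb8 was also lower in iCM (-1.26) and nCM (-1.46) than in CSC, and Abcb6 was higher in iCM than in CSC (0.60). Abcb10 was called lower in nCM than in CSC (-0.33, adjusted p = 0.0366), a call lost without nCM replicate 1 or 2 or CSC replicate 2 or 3. Of 5 partner genes of mitochondrial iron and haem, Alas1, the first enzyme of haem synthesis outside erythroid cells, averaged 59.95 CPM in iCM, 373 in aCM, 54.9 in nCM and 15.7 in CSC. Fech, the last enzyme, was higher than in CSC by 1.83 (iCM), 2.15 (aCM) and 1.85 (nCM), and the mitochondrial iron importers Slc25a37 and Slc25a28 were lower than in CSC in all 3 groups. The 6 erythroid markers summed to 16500 to 19700 CPM in iCM, 78.9 to 98.8 in aCM, 23600 to 35600 in nCM and 23.3 to 164 in CSC. Their part in the levels of these haem genes was not tested.

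Abcd2 and Abcd3, which import fatty acyl substrates into peroxisomes, were likewise highest in aCM. Abcd3 (PMP70), a major peroxisomal membrane protein, had 76.4, 70.1 and 73.6 CPM in iCM, 147, 154 and 149 in aCM, 67.4, 64.8 and 59.4 in nCM, and 86.0, 87.0 and 88.0 in CSC. No groups overlapped, and aCM was highest. Abcd2 and Abcd3 were higher in aCM than in nCM by 1.26 ± 0.19 and 1.23 ± 0.09 on the log2 scale, lower in iCM than in aCM (-0.96 and -1.03), and not called in iCM over nCM. Against CSC they parted: Abcd2 was higher in iCM (1.87), aCM (2.83) and nCM (1.57), while Abcd3 was higher in aCM (0.79) and lower in nCM (-0.45). The call of Abcd3 in iCM over CSC (-0.25) was lost without iCM replicate 2 or 3 or CSC replicate 2 and with library totals alone.

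The peroxisomal partner genes Pex3 and Pex19, which act in building the peroxisomal membrane, and Ppara, a nuclear receptor that drives genes of fatty acid oxidation, were higher in aCM than in nCM and lower in iCM than in aCM. Ppara averaged 6.14 CPM in iCM, 101 in aCM, 3.37 in nCM and 0.90 in CSC.

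The lysosomal members went opposite ways. Abcb9, a lysosomal peptide transporter, had 0.489, 0.718 and 0.714 CPM in iCM, 21.1, 9.80 and 12.1 in aCM, 0.814, 0.767 and 0.875 in nCM, and 0.191, 0.107 and 0.0887 in CSC, where it rested on 8, 5 and 3 counts. All aCM libraries were above all others. It was 17.4-fold higher in aCM than in nCM (log2 fold change 4.12 ± 0.31, adjusted p = 8.69e-08) and 22.2-fold lower in iCM than in aCM (-4.47 ± 0.32). Against CSC it was higher by 2.27 (iCM), 6.75 (aCM) and 2.62 (nCM). Abcd4, which acts in lysosomal release of vitamin B12, averaged 9.35 ± 0.61 CPM in iCM, 6.08 ± 0.081 in aCM, 7.96 ± 0.37 in nCM and 24.3 ± 2.3 in CSC. Its log2 fold changes against CSC were -1.38 (iCM), -2.00 (aCM) and -1.61 (nCM), with no overlap.

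Among the proteins of translation, Abce1, the ribosome recycling factor, had 158, 157 and 173 CPM in iCM, 94.0, 114 and 124 in aCM, 190, 160 and 130 in nCM, and 348, 374 and 450 in CSC. The CSC libraries lay above all others, and iCM and nCM overlapped. Its log2 fold changes against CSC were -1.26 ± 0.15 (iCM), -1.82 ± 0.16 (aCM) and -1.29 ± 0.15 (nCM), and it was lower in aCM than in nCM (-0.53). Abcf1 and Abcf3, in contrast, were higher in aCM than in nCM (1.35 ± 0.12 and 1.27 ± 0.09) and lower in iCM than in aCM (-0.93 and -0.90), and Abcf1 and Abcf2 were lower in iCM (-0.78 and -0.91) and nCM (-1.20 and -0.92) than in CSC. Abcf2 in aCM over nCM had a log2 fold change of 0.33 (adjusted p = 0.0354) with TMM and -0.01 (adjusted p = 0.919) with library totals alone, so its direction there depends on the scaling. Its call, and that in iCM over aCM, was also lost without any one of the 3 aCM libraries or nCM replicate 2, among others. The call of Abcf1 in iCM over nCM (0.42) was lost without iCM replicate 1 or 2 or nCM replicate 2 or 3. All 5 measured partners in ribosome recycling and amino acid sensing (Pelo, Hbs1l, Etf1, Gspt1 and Eif2ak4) were lower in iCM than in CSC, and 4 of 5 in aCM and in nCM. Of all genes, 31.2% (iCM), 34.8% (aCM) and 35.4% (nCM) were lower than in CSC. Processed pseudogenes of Abce1 and Abcf2, and of Abcc1 and Abcg2, are named in RefSeq, and reads shared with them cannot be told apart here.

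The last members were close to the floor. Abcc6, mutated in pseudoxanthoma elasticum, was higher than in CSC in aCM (1.13) and nCM (0.99). Abcc12 was lower in iCM than in aCM (-1.86, adjusted p = 0.002), on 9 to 10 counts in the iCM libraries and 10 to 19 in the aCM libraries, and its call in iCM over CSC was lost without any one of the iCM or CSC libraries. Abcb5 was higher in aCM than in CSC (1.5), and its call in iCM over aCM (-0.90) was lost without iCM replicate 1 or 2 or aCM replicate 1. Of the ABC genes known by other symbols, Tap1 and Tap2, the peptide transporter of antigen presentation, were lower than in CSC in iCM (-1.95 and -1.49), aCM (-0.945 and -1.25) and nCM (-1.37 and -2.28), and the chloride channel Cftr was higher (0.72, 1.60 and 0.83).

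Within groups, the CSC cultures varied most across the family. The highest of the 3 libraries exceeded the lowest more than 2-fold for 14 of 48 members in CSC (29.2%, against 20.7% of all genes tested), for 4 in aCM (8.33% against 14.5%), 4 in nCM (8.33% against 9.98%) and none in iCM (against 6.56%). The CSC group thus had the highest share among all genes as well. The CSC genes included Abcb1a, Abcb1b, Abcc4 and Abcg2, although the 3 cultures are of 1 clone. For Abcb1a, Abcc4, Abcc9 and Abcb9 CSC replicate 1 was the highest, whereas Abca9 and Abcg2 were highest in CSC replicate 3.

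The comparison of clones used 1 library per clone, so it has no replicate check and no test, and the genes named here were chosen after their values were seen. Values are CPM of each column's total, and the cCSC1 and cCSC2 columns are signals on the scale of counts whose making is not stated. The column of clone 4 matched CSC replicate 1 for all 48 members. Relative to clone 4, 5 members were more than 2-fold higher and 1 lower in cCSC1, against 11% and 7.61% of all genes compared, 9 higher and 1 lower in cCSC2 (17.8% and 5.76%), and 4 higher and 5 lower of 47 in cCSC3 (8.92% and 13.9%).

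Abca1 set clone 4 apart, at 407 CPM for cCSC1, 338 for cCSC2 and 676 for cCSC3, against 7.78 in clone 4. The other cultures of clone 4, CSC replicates 2 and 3, had 22.9 and 27.5 CPM on the same scale, so all 3 lay below every other clone. Its upstream sequence, the 250 bases before the start on GRCr8 from RefSeq, is given because Abca1 differed most between the clones among the 48 ABC genes, with matches to a GC box, an E box and a TATA box in capitals. The exact consensus of the LXR element (the DR4 direct repeat) had no match in it, but variant forms were not searched. Only 0.00299% of all windows hold that exact consensus, so the search cannot decide whether this window holds an LXR element.
Abca1, chr5:72596474-72596723, minus strand: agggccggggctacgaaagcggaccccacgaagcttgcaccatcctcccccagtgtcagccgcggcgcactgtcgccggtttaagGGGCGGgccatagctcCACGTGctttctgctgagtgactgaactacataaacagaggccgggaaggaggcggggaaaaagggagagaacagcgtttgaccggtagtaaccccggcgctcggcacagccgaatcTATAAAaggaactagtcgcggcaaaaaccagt

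Abcg1, the other cholesterol exporter, reached 67.5 CPM for cCSC1, 44.7 for cCSC2 and 68.9 for cCSC3, against 25.5 in clone 4, with 51.7 and 51.8 in CSC replicates 2 and 3, so cultures of clone 4 covered much of that range. The LXR gene Nr1h3 was lower, at 7.13, 8.77 and 9.07 CPM, against 16.9 in clone 4, with 15.0 and 23.1 in CSC replicates 2 and 3.

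The efflux pumps of the stem cells were present at high level in every clone. Abcb1a reached 330.6 CPM for cCSC1, 195 for cCSC2 and 325 for cCSC3, against 230.4 in clone 4, and Abcc4 had 508, 345 and 477, against 410.4 in clone 4. Abcb1b had 96.7, 76.7 and 138 CPM, against 260.0 in clone 4, but 86.0 and 129 in CSC replicates 2 and 3. Abcg2 stayed low, at 1.70, 1.54 and 2.79 CPM, against 1.18 in clone 4.

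The clone cCSC2 stood apart for Abcc9, with 11.9 CPM, against 1.10 in cCSC1, 0.274 in cCSC3 and 0.827 in clone 4. It also had 3.5 CPM of Abca9, against 0.697 in clone 4 (5.11 in CSC replicate 3), and 7.89 of Abca15, against 0.781. The same column held 422 CPM of Dcn and 643 of Pdgfrb, a fibroblast and a mural cell marker, against 0.285 and 12.9 in clone 4. Other markers of the same lists did not all follow. The mural markers Cspg4 and Myh11 were lower, at 102.7 and 7.785 CPM against 228.7 and 12.72 in clone 4. The fibroblast marker Col1a1 was 1.46-fold higher than in clone 4. The part of these markers in the result was not tested.

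**Figure D5:**
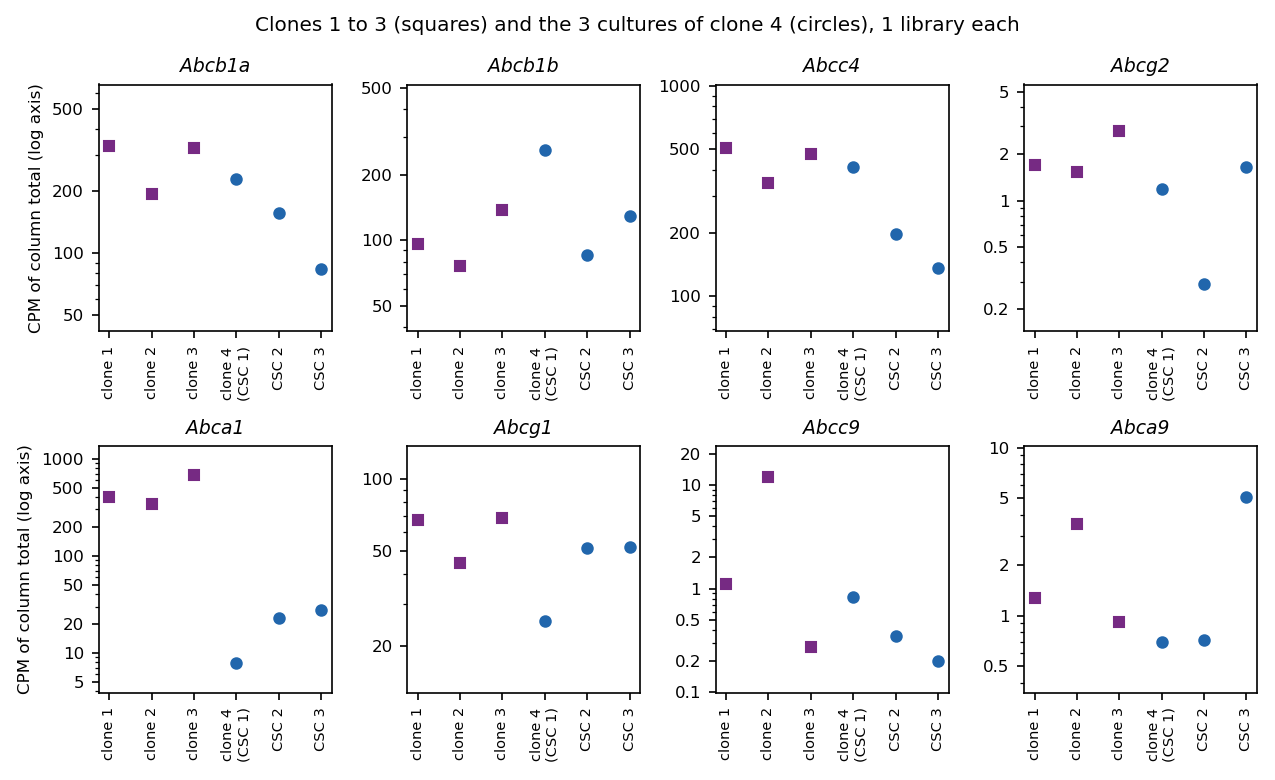
CPM of column total (log axes, a scale of its own for each gene) of 8 ABC genes in clones 1 to 3 (squares, 1 library each) and in the 3 cultures of clone 4 (circles, CSC replicates 1 to 3). Abca1 was at 338 to 676 in clones 1 to 3, against 7.78 to 27.5 in the cultures of clone 4.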

How the data were processed

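RNA of 15 libraries was sequenced, per the labels' protocols after removal of ribosomal RNA and from 1 µg of total RNA with an integrity number of at least 8. The authors deposited estimated counts per Ensembl gene, some of them not whole, for the 12 libraries of iCM, aCM, nCM and CSC, for cCSC3 and for clone 4. The deposited columns of cCSC1 and cCSC2 hold a signal on the scale of counts and how it was made is not stated. The authors' normalized columns are log2 values as deposited, from which only library factors were read. DESeq is named in the submitters' processing notes. No source used here gives the aligner, the counting program, strand use or the genome build.

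Counts were rounded, and 1 line without a gene name, at 0.0 counts, was left out. Low genes were removed with filterByExpr at a minimum count of 10, leaving 17242 genes of 26276, libraries were scaled by TMM, and all 12 libraries entered 1 fit with 6 contrasts, tested by edgeR's quasi-likelihood F-test, with p-values adjusted over all genes (Benjamini-Hochberg, threshold 0.05). Directions are as named, so aCM over nCM is positive where aCM is higher. Fold changes are log2 ± SE and levels are mean ± SD. Replicates were compared for duplicates: iCM replicates 2 and 3 were the closest pair, at a median chi-square of 1.74 per gene where counting noise alone gives 0.455, so none was taken as a repeat. The procedure was tested on simulated data. The members, role groups, pathway genes and marker lists were chosen with earlier results of these data known. Named genes are Abcb1a, Abcg2, the 4 members with the largest called change in each direction in each comparison, and the others within their role group. Clones were given as CPM of column totals with no test. Promoter windows were read from RefSeq (GRCr8), where 47 of 48 members matched by symbol and 37 had a window, and coordinates of other features are not printed because the build of the counts is not stated. Alternatives were RLE scaling, library totals alone, the authors' factors (added after seeing the data), no filter, a minimum count of 50, DESeq2, only the 2 groups compared, the replicate number as a block and leaving out each library. Tools were R 4.3.3, edgeR 4.0.16, limma 3.58.1, DESeq2 1.42.0, Python 3.11.15, pandas 2.3.3, numpy 2.4.6, scipy 1.17.1 and matplotlib 3.10.9. Single values of some members and pathway genes are not reported here, although counts over lists include them.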

Additional observations from a re-analysis of the deposited data

How the results depend on the processing

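Counts of members called moved by less than 1.5 times under every alternative except in iCM over nCM, where 9 were lower in a fit of those 2 groups alone, against 5 in the fit of all 4 groups, and where leaving out 1 library gave 7 to 12 higher (7 without iCM replicate 2 or nCM replicate 2, against 11) and 3 to 7 lower (3 without iCM replicate 2 or 3 or nCM replicate 2 or 3). Of 5723 values of single members under the alternatives, 218 lost a call, 77 gained 1 and 1 reversed, that of Abcf2 in aCM over nCM with library totals alone (-0.0145, adjusted p = 0.919). Scaling moved the median log2 fold change of all genes by over 0.1 in some comparisons: in aCM over nCM to -0.354 and in iCM over aCM to 0.28 with library totals alone (-0.00925 and 0.00209 with TMM), in aCM over CSC to 0.0674 with the authors' factors (0.287 with TMM), in nCM over CSC to -0.0612 with the authors' factors and 0.256 with library totals alone (0.089 with TMM), and in iCM over CSC to -0.0704 with the authors' factors (0.0807 with TMM). The replicate numbers did not pair the samples: deviations of same-numbered libraries of 2 groups correlated at -0.199 to 0.0737. With the replicate number as a block, 17 members were higher and 17 lower in iCM over CSC, 20 and 18 in nCM over CSC, 27 and 11 in aCM over CSC, 10 and 5 in iCM over nCM, 6 and 24 in iCM over aCM, and 22 and 8 in aCM over nCM. Depth limits the 5 members whose highest group mean was under 1 CPM (Abca14, Abcb11, Abcb5, Abcc12 and Abcg5). The cause of these shifts was not tested.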
